A study of Mus musculus with 40 samples.

Results

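Blood of 6 Ifnar1+/+ mice bled on day 4 of pristane was compared with blood of 3 uninduced Ifnar1+/+ mice, by mRNA sequencing of whole peripheral blood. These 9 libraries were chosen by their labels from the 40 of the series, which also holds mice bled on day 6, mice given spermine, and mice labelled Ifnar1-/-. Pristane is a hydrocarbon oil that brings on lupus-like disease when injected into mice, and Ifnar1 encodes a chain of the type I interferon receptor. The series' design gives 7-week-old females for both genotypes, and names PBS or spermine for 3 days before pristane, of which the mice bled on day 4 and day 6 described here had PBS. The labels name no pretreatment for the uninduced mice, so pristane and PBS handling cannot be told apart in the comparison. The same change was also measured in mice labelled Ifnar1-/- (5 PBS-treated day 4 and 3 uninduced), and 6 PBS-treated Ifnar1+/+ mice bled on day 6 give the later time. Each library is labelled as a biological replicate. Unless a fit of fewer mice is named, the p-values rest on the spread within the 8 groups of all 40 libraries, not of the compared mice alone.

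Mouse blood is rich in lymphocytes, and inflammation releases neutrophils and monocytes from the bone marrow into it. Neutrophils make their granule proteins in stages in the marrow, so transcripts of the early granules mark young cells. Type I interferons act through their receptor and turn on antiviral genes whose promoters often carry an interferon-stimulated response element. Natural killer cells are cytotoxic lymphocytes, and many of their lectin-like receptors are encoded in a single gene cluster. Because blood was sequenced in bulk, fewer cells of a type and less RNA per cell cannot be told apart in any value given here.

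The 9 libraries held 9156431 to 11576024 fragments counted in genes, of which 44.1 to 58.7 percent came from hemoglobin genes. Ptprc, the gene of the leukocyte antigen CD45, stood at 33.2 to 42.6 FPKM (fragments per kilobase of gene). These values are scaled by a median-of-ratios size factor of each library, not by its total of fragments. Libraries of 4 of the 9 mice stood apart. In uninduced mouse 3 and day 4 mice 1, 3 and 4 mitochondrial transcripts made up 0.88 to 1.07 percent of the non-hemoglobin fragments, against 1.5 to 1.83 percent in the other 5. The same 3 day 4 mice were also highest for Epb41, an erythroid membrane skeleton gene (1206 to 1304 FPKM against 333 to 466 in day 4 mice 2, 5 and 6). Main counts are therefore also given without the 7 libraries of the series with such a low share. All 7 were among the 27 Ifnar1+/+ mice and 0 among the 13 labelled Ifnar1-/-, so the share is not balanced between the genotypes. Ifnar1 stood at 13.7 to 23.9 FPKM in the 13 mice labelled Ifnar1-/- and at 5.85 to 10.3 in the 27 Ifnar1+/+ mice, so the whole-gene value does not show a loss and the label is given as such.

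On day 4, 199 of 11829 tested genes were higher (1.68 percent) and 49 lower (0.414 percent) than in uninduced mice, by limma at a Benjamini-Hochberg adjusted p under 0.05. All changes are on the log2(FPKM + 1) scale, which understates those of genes with low values, a value after ± is the SE unless marked SD, and the median over all tested genes was 0.02. Every day 4 mouse stood above every uninduced mouse in 466 genes (3.94 percent) and below in 250 (2.11 percent). Of the 49 lower genes 11 had under 10 reads in each of the 9 mice, 8 were shorter than 200 bases and 25 were protein coding, against 0, 0 and 196 of the 199 higher genes. With no filter on low values 163 and 114 genes were called higher and lower, and 294 and 52 with a pseudocount of 0.1. The counts rested on the scaling and on the estimate of spread. When every library was given the same total after hemoglobin was set aside (the fixed total), 14 genes were called higher and 29 lower (0.118 and 0.245 percent), and the median of all genes moved to -0.20. In a fit of the 9 mice alone, 12 genes were called higher and 5 lower. Of the 11829 genes, 1683 had an unadjusted p under 0.05 by limma, 1746 with the fixed total and 1260 in the fit of 9 mice. Counts of unadjusted p in the lists below are to be read beside these. Without the low mitochondrial libraries the counts were 227 and 44 (1.92 and 0.372 percent). They were 83 and 31 without uninduced mouse 3, 99 and 33 without uninduced mouse 1, and 109 and 37 without day 4 mouse 5. Of the 74 called genes named in the text, 22 were also called with the fixed total and 9 in the fit of 9 mice, and 0 turned direction in any alternative.

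**Figure D1:**
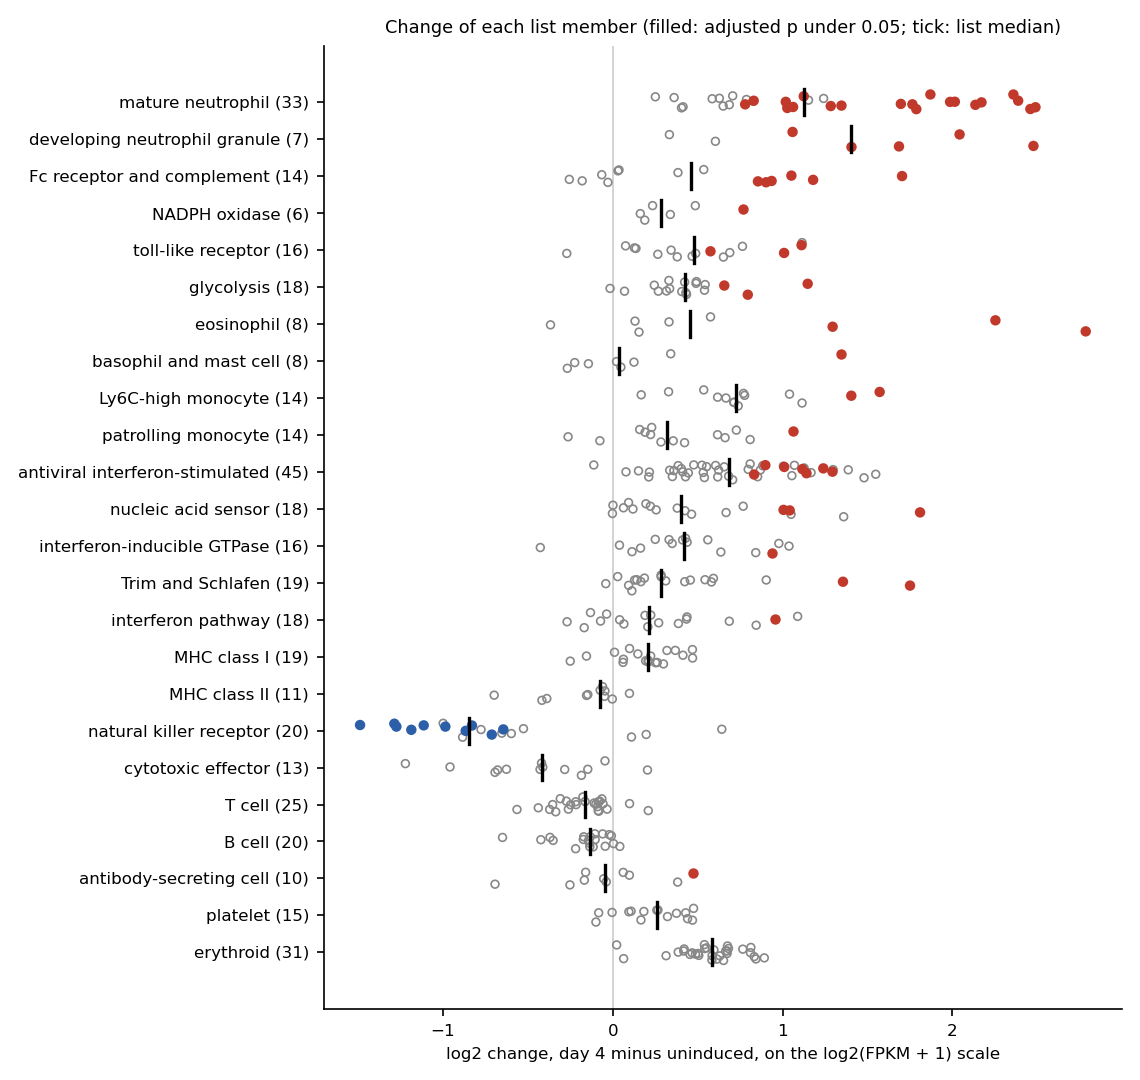
Log2 change from uninduced to day 4 (x axis, log2(FPKM + 1) scale) of each tested member of 24 gene lists (rows). Filled points were called at adjusted p under 0.05 and the tick is the list's median. The medians of the neutrophil and granule lists (1.12 and 1.41) lie to the right, 1 eosinophil gene, Ear1, reaches farthest (2.79), and the natural killer receptor list lies to the left (median -0.85).

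Many neutrophil genes rose. Of 33 tested genes of mature neutrophils 20 rose and 0 fell, 33 had changes above 0 and the median was 1.12. The count was 3 with the fixed total, 2 in the fit of 9 mice and 12 without uninduced mouse 3. Lcn2, which encodes the iron-withholding granule protein lipocalin 2, stood at 4.33, 2.29 and 3.07 FPKM in the uninduced mice and at 12.6 to 46.5 (median 18.4) on day 4, a change of 2.46 ± 0.31 (SE, adjusted p = 5.8e-06). The groups did not overlap, and day 4 mice 5 and 6 were highest. S100a9, a subunit of calprotectin, stood at 284, 258 and 143 FPKM before and at 454 to 1992 (median 808) on day 4 (1.99 ± 0.39, adjusted p = 0.0026). Its partner S100a8 rose by 1.87 ± 0.40 (SE, adjusted p = 0.0064), and for both genes mouse 5 was highest. Ly6g, the surface antigen used to identify mouse neutrophils, stood at 1.10, 0.15 and 1.2 FPKM and then at 3.73 to 21.7 (median 7.98), a change of 2.49 ± 0.46 (SE, adjusted p = 0.0011). Day 4 mouse 4 was the lowest of the 6 and still above all 3 uninduced mice.

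Asprv1, an aspartic protease gene, held its call in all 17 alternatives. It stood at 5.37, 3.51 and 3.09 FPKM before and at 15.5 to 40.1 (median 17.5) on day 4 (2.14 ± 0.27, adjusted p = 8.4e-06). Mmp8, the neutrophil collagenase, went from 5.23, 6.01 and 7.67 FPKM to between 17.7 and 52.9, and Lrg1, a secreted glycoprotein gene, from 10.2, 3.75 and 5.72 FPKM to between 15.8 and 84.6. In these 3 genes, too, the groups did not overlap. Wfdc21 (2.39 ± 0.47, adjusted p = 0.0023), Ifitm6 (2.17 ± 0.44, adjusted p = 0.0033), Hdc, which makes histamine (1.35 ± 0.20, adjusted p = 8.2e-05), and Cxcr2, the receptor for neutrophil-attracting chemokines (1.12 ± 0.20, adjusted p = 0.00088), rose as well. Chil1, a chitinase-like gene, went from 2.59, 1.43 and 2.87 FPKM to between 7.96 and 18.4 (1.88 ± 0.20, adjusted p = 2.0e-07), and Steap4, a metalloreductase gene, rose by 1.88 ± 0.27 (SE, adjusted p = 5.0e-05). With the fixed total the median of the 33 genes was 0.79. Without the low mitochondrial libraries 25 of them were called. S100a9, S100a8 and Ifitm6 lost their calls without uninduced mouse 3, and Wfdc21 without uninduced mouse 2. Both the fixed total and the fit of 9 mice ended the calls of Ly6g, S100a8, S100a9, Wfdc21, Ifitm6, Hdc and Cxcr2. Mmp8 lost its call with the fixed total alone of these 2, and Lcn2, Lrg1, Chil1 and Steap4 in the fit of 9 mice alone. Voom did not call Ly6g or Wfdc21.

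**Figure D2:**
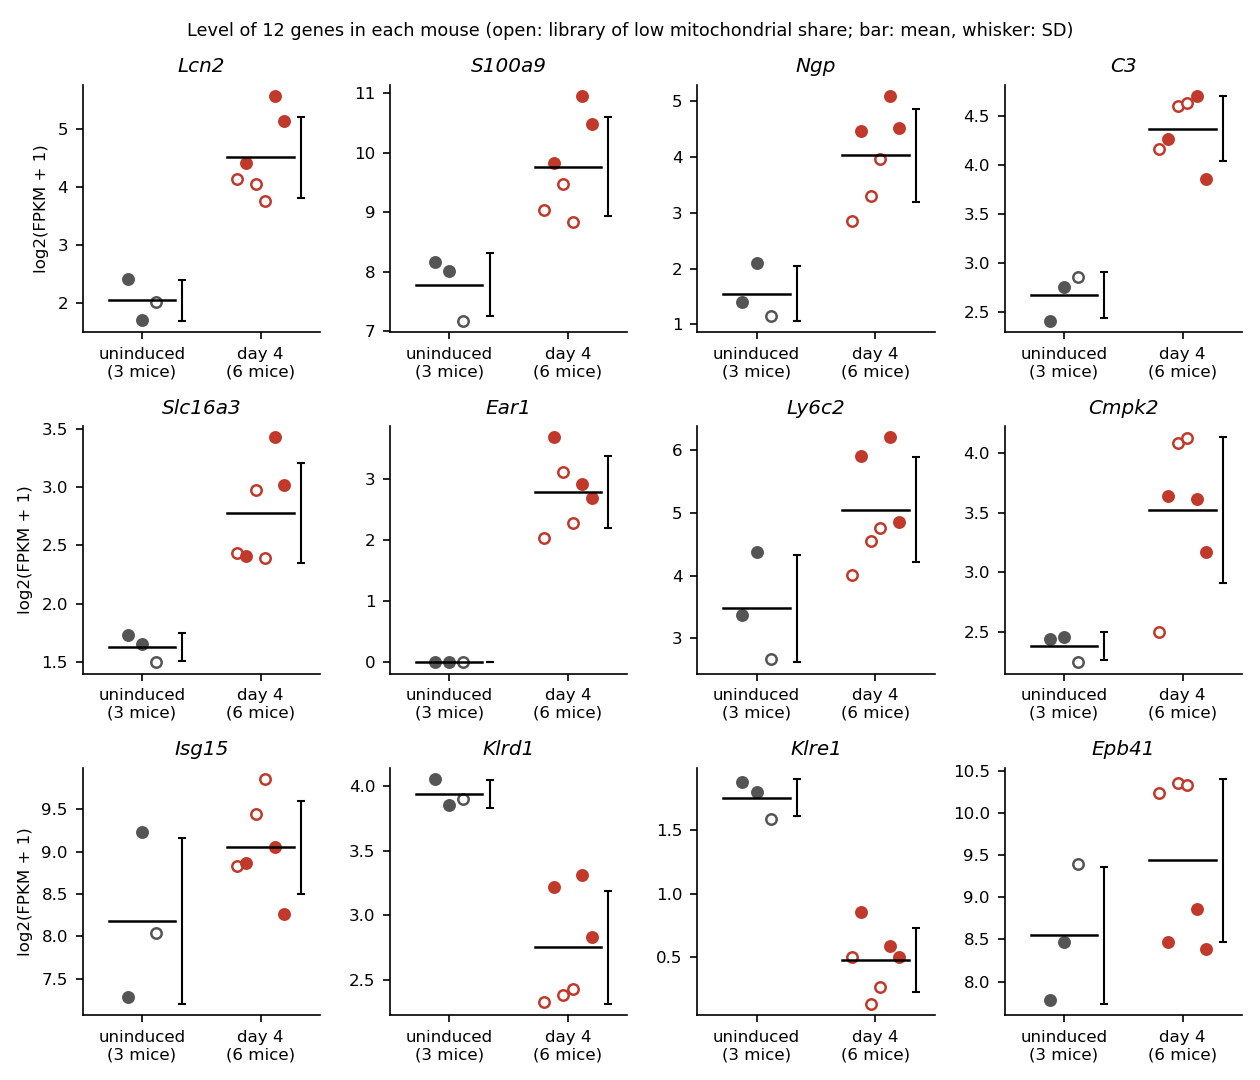
Level of 12 genes on the log2(FPKM + 1) scale (y axis, its own range in each panel) in the 3 uninduced and 6 day 4 mice. Each point is 1 mouse, open where the library had a low mitochondrial share, the bar is the mean and the whisker the SD. Every day 4 mouse is above every uninduced mouse for Lcn2, S100a9, Ngp, C3, Slc16a3 and Ear1 and below for Klrd1 and Klre1, while the groups overlap for Isg15 and Epb41.

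Of 7 tested genes of the granules that neutrophils fill in the marrow 5 also rose, with a median of 1.41. The count was 2 with the fixed total, 1 in the fit of 9 mice, 2 without uninduced mouse 1 or 3 and 3 without day 4 mouse 5. Ngp, a secondary granule gene, stood at 1.64, 3.27 and 1.24 FPKM before and at 6.25 to 33.1 (median 17.7) on day 4, a change of 2.48 ± 0.42 (SE, adjusted p = 0.00046). Ltf, which encodes lactoferrin, went from 0.52, 0.79 and 0.36 FPKM to between 2.75 and 8.36 (2.04 ± 0.34, adjusted p = 0.00040). Mice 5 and 6 were again highest for both, and every day 4 mouse exceeded every uninduced mouse. Chil3, another chitinase-like gene (1.69 ± 0.39, adjusted p = 0.012), and Camp, the cathelicidin gene (1.41 ± 0.35, adjusted p = 0.021), were called as well. Camp overlapped, since day 4 mouse 1 (0.82 FPKM) was below uninduced mouse 2 (1.51 FPKM). Of the primary granule genes, which mark the earliest stages, Prtn3, the proteinase 3 gene, was tested and rose, from 0.21, 0.082 and 0 FPKM to between 0.28 and 2.19 (1.06 ± 0.28, adjusted p = 0.034), and is named here after its values were seen. Mpo, Elane and Ctsg were too low to test, with at most 4, 8 and 2 reads in a day 4 mouse. Chil3 lost its call without uninduced mouse 1 or 3 or the low mitochondrial libraries, Camp without uninduced mouse 1 or 3 or day 4 mouse 5, and Prtn3 without uninduced mouse 1, 2 or 3 or day 4 mouse 1, 2 or 5.

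Promoters of 3 of these genes are shown because each holds the letters TTGCNNAA, a spelling of the site of the C/EBP factors that act in granulocyte formation. They are RefSeq sequences of build GRCm38.p6 that end at the base before the annotated start, 5′ to 3′ on the gene's strand, with a match on either strand in capitals. Ngp is from chr9:110419658-110419807 on the plus strand, Ltf from chr9:111019192-111019291 on the plus strand and Mmp8 from chr9:7558329-7558428 on the plus strand.
Ngp: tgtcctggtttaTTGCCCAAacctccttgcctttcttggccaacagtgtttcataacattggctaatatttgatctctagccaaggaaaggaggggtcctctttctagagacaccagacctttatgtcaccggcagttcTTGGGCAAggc
Ltf: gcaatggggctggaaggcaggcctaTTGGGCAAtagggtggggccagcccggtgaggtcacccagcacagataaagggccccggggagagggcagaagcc
Mmp8: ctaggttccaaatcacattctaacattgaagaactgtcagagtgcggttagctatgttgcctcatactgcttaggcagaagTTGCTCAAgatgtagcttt
Ngp held 2 matches, the nearer 11 bases before the start, and Mmp8 and Ltf held 1 each, at 19 and 75 bases. In the 250 bases before the start, 8 of 23 called neutrophil and granule genes with a sequence held a match (34.8 percent), as did 2 of 12 not called (16.7 percent) and 10.8 percent of all 27025 genes with a sequence. The spelling was chosen after others had been tried, and a match is a description, not a site.

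Receptors and enzymes of phagocytes were higher in part. Of 14 tested Fc receptor and complement genes 6 rose (median 0.46). The count was 1 with the fixed total, 1 in the fit of 9 mice, 2 without uninduced mouse 3 and 3 without uninduced mouse 1. C3, the central complement component, stood at 4.30, 5.75 and 6.24 FPKM before and at 13.5 to 25.2 (median 20.9) on day 4, a change of 1.70 ± 0.24 (SE, adjusted p = 3.5e-05). The groups did not overlap, and the gene was also called with the fixed total and in the fit of 9 mice. Fcgr3, an IgG receptor (0.94 ± 0.21, adjusted p = 0.0081), C5ar1, the C5a receptor (0.86 ± 0.20, adjusted p = 0.012), and Cfp, which encodes properdin (0.90 ± 0.21, adjusted p = 0.012), rose too. Of 16 tested toll-like receptor genes 3 rose: Tlr13, a sensor of bacterial ribosomal RNA (1.11 ± 0.21, adjusted p = 0.0012), Tlr2, which recognises lipoproteins (1.01 ± 0.18, adjusted p = 0.00071), and the adaptor Ticam1 (0.58 ± 0.13, adjusted p = 0.011). The toll-like receptor count was 0 with the fixed total, 0 in the fit of 9 mice and 5 without day 4 mouse 1. Of 6 tested genes of the NADPH oxidase, which makes the oxidative burst, 1 rose, the catalytic subunit Cybb (0.77 ± 0.20, adjusted p = 0.032). That count was 0 with the fixed total, 0 in the fit of 9 mice and 2 without day 4 mouse 1. None of 20 NF-kB pathway genes was called by limma (median -0.03, 3 at an unadjusted p under 0.05, against 1683 of all 11829 genes). Of 16 tested interleukin-1 family and inflammasome genes 0 rose and 1 fell, the interleukin-18 receptor chain Il18r1 (-0.67 ± 0.16, adjusted p = 0.016). Calls in this list numbered 0 with the fixed total, 0 in the fit of 9 mice and 2 without day 4 mouse 1 or 3. Fcgr3 and C5ar1 lost their calls without uninduced mouse 3, Cfp and Ticam1 without uninduced mouse 1 or 2, Cybb without uninduced mouse 1, 2 or 3 or day 4 mouse 3, 4 or 5 or the low mitochondrial libraries, and Il18r1 without uninduced mouse 1 or 3 or the low mitochondrial libraries.

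Genes of sugar use were higher in part. Of 18 tested glycolysis genes 3 rose and 17 had changes above 0 (median 0.43). Slc16a3, a lactate exporter, stood at 2.32, 2.15 and 1.82 FPKM before and at 4.26 to 9.76 (median 5.63) on day 4, a change of 1.15 ± 0.19 (SE, adjusted p = 0.00045). Hk3, a hexokinase (0.80 ± 0.19, adjusted p = 0.016), and Pkm, a pyruvate kinase (0.66 ± 0.15, adjusted p = 0.011), rose too, and the groups did not overlap in any of the 3. Pgd, a pentose phosphate enzyme that supplies NADPH, went from 8.05, 8.13 and 9.87 FPKM to between 12.6 and 19.8 (0.71 ± 0.14, adjusted p = 0.0021). The mean level of the 18 genes was 3.09 to 3.21 in uninduced mice and 3.52 to 3.81 on day 4 (mean log2 level). With the fixed total 0 of them were called by limma (1 at an unadjusted p under 0.05) and the median was 0.11. The count was 1 without uninduced mouse 1, 5 without day 4 mouse 2 and 7 without the low mitochondrial libraries, and 0 in the fit of 9 mice. Hk3 lost its call without uninduced mouse 1 or 3 or day 4 mouse 5, and Pkm without uninduced mouse 1.

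**Figure D3:**
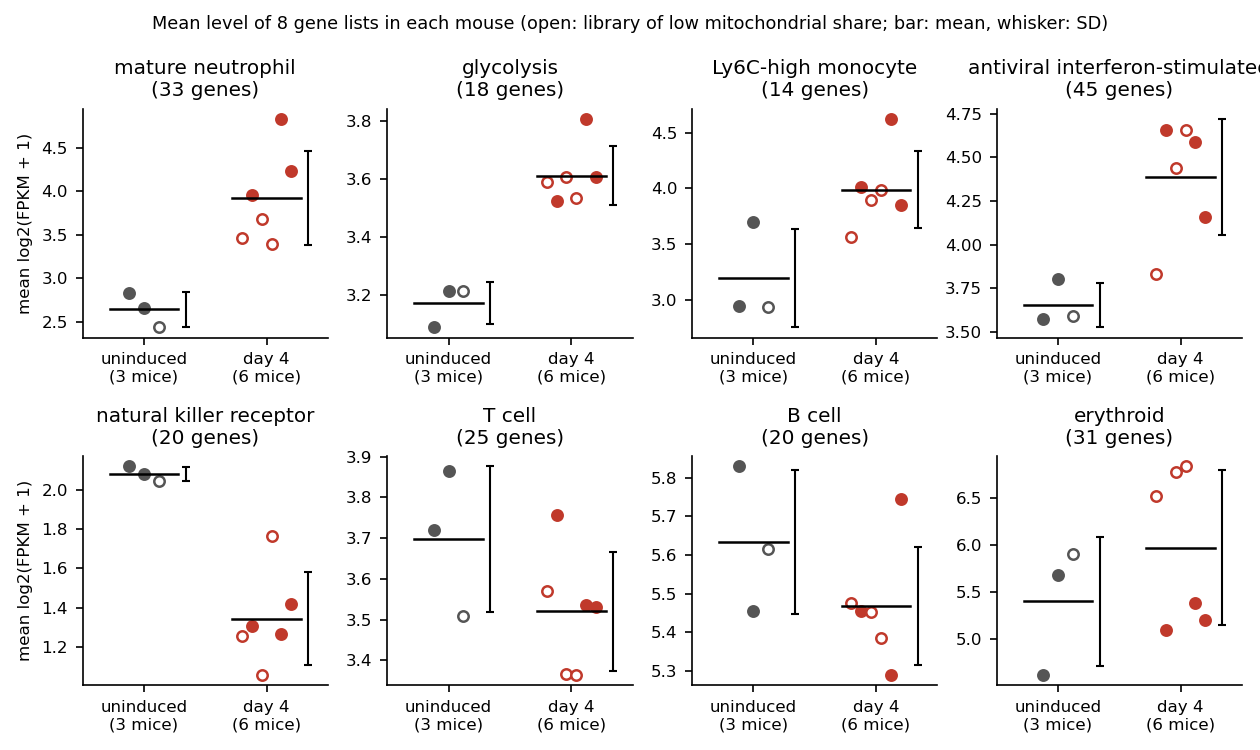
Mean log2(FPKM + 1) over the members of 8 gene lists (y axis, its own range in each panel) in each of the 3 uninduced and 6 day 4 mice. Open points are libraries of low mitochondrial share, the bar is the mean and the whisker the SD over mice. All day 4 mice lie above all uninduced mice for the neutrophil, glycolysis and interferon-stimulated lists and below for the natural killer list, and the erythroid level is highest in the 3 open day 4 points.

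Eosinophil genes rose unevenly. Of 8 tested genes 7 had changes above 0 and 1 below (median 0.45). Ear1, an eosinophil-associated ribonuclease gene, had 0 reads in the 3 uninduced mice and 11 to 98 in each day 4 mouse, or 3.11 to 11.8 (median 6.00) FPKM. Against a floor of 3 reads over the uninduced group the day 4 mean was at least 44.3-fold higher, and the call held in all 17 alternatives. Prg2, which encodes major basic protein, had 3 reads in the uninduced mice together and 2.30 to 10.4 FPKM on day 4 (2.25 ± 0.40, adjusted p = 0.00071). Ear6 was called on few reads (1.29 ± 0.35, adjusted p = 0.042), making 3 of 8 genes that rose. The chemokine receptor gene Ccr3, a defining eosinophil marker, stood at 1.63, 2.62 and 1.04 FPKM before and at 0.53 to 2.10 on day 4 (-0.37 ± 0.32, adjusted p = 0.66). Ear2 stood at 6.71, 7.95 and 1.92 FPKM and then at 1.72 to 15.2 (0.58 ± 0.50, adjusted p = 0.67), and both genes overlapped between the groups. The Ear genes are near copies, so the values of single members are uncertain. Of 8 basophil and mast cell genes 1 rose, Hdc, which the neutrophil list also holds. Ear6 lost its call without uninduced mouse 1, 2 or 3 or day 4 mouse 2, 3 or 5 or the low mitochondrial libraries.

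Genes of Ly6C-high monocytes, the inflammatory kind, had changes above 0 in 14 of 14 cases (median 0.73), and 2 rose. The count was 0 with the fixed total, 0 in the fit of 9 mice, 0 without uninduced mouse 3, 1 without uninduced mouse 1, 5 without day 4 mouse 1 and 7 without uninduced mouse 2. Ly6c2, their defining surface gene, stood at 9.40, 19.8 and 5.37 FPKM before and at 15.2 to 72.6 (median 27.0) on day 4, a change of 1.57 ± 0.36 (SE, adjusted p = 0.011). Day 4 mouse 1 lay below uninduced mouse 2, and mice 2 and 5 were highest. Mgst1, a glutathione transferase gene, rose by 1.41 ± 0.27 (SE, adjusted p = 0.0017). Ccr2, the receptor with which these cells leave the marrow, did not pass the test (0.67 ± 0.25, adjusted p = 0.18). Of 14 tested genes of patrolling monocytes 1 rose (median 0.32), Pglyrp1, a peptidoglycan-binding protein that neutrophils also make (1.06 ± 0.29, adjusted p = 0.040). Ace (0.66 ± 0.31, adjusted p = 0.32), Cd300e (0.73 ± 0.31, adjusted p = 0.25) and Cebpb (0.81 ± 0.35, adjusted p = 0.27) did not pass. Ly6c2 lost its call without uninduced mouse 1 or 3, Mgst1 without uninduced mouse 3, and Pglyrp1 without uninduced mouse 1, 2 or 3 or day 4 mouse 2, 4, 5 or 6.

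Interferon-stimulated genes were moderately higher, and few passed the test singly. Of 45 tested antiviral genes 7 rose and 44 had changes above 0, with a median of 0.68. In 12 of them every day 4 mouse was above every uninduced mouse. Ifitm3, which blocks virus entry, stood at 44.5, 103 and 52.1 FPKM before and at 112 to 245 (median 151) on day 4, a change of 1.29 ± 0.30 (SE, adjusted p = 0.012). Cmpk2, a mitochondrial nucleotide kinase gene, went from 4.42, 4.5 and 3.75 FPKM to between 4.67 and 16.5 (1.14 ± 0.30, adjusted p = 0.034). Day 4 mouse 1 was just above the uninduced mice, and mice 3 and 4 were highest. Lgals3bp, a galectin-binding protein (1.01 ± 0.26, adjusted p = 0.027), and Lgals9, a galectin (0.90 ± 0.21, adjusted p = 0.016), rose too. Isg15, a ubiquitin-like modifier, stood at 155, 597 and 261 FPKM before and at 306 to 927 (median 496) on day 4 (0.87 ± 0.51, adjusted p = 0.46). Uninduced mouse 2 was above 4 of the 6 day 4 mice. Irf7, the factor that amplifies interferon production, stood at 32.5, 73.4 and 99.8 FPKM and then at 67.6 to 272 (1.09 ± 0.47, adjusted p = 0.27), with overlap. With the fixed total 0 of the 45 genes were called by limma (median 0.35, 12 at an unadjusted p under 0.05), in the fit of 9 mice 0 (25 likewise), and without the low mitochondrial libraries 5 (median 0.72). Leaving out 1 library moved the count of 7 to 0 without uninduced mouse 3, 1 without uninduced mouse 1, 2 without day 4 mouse 2, 4 or 5, 3 without uninduced mouse 2 and 4 without day 4 mouse 3. Ifitm3 and Lgals9 lost their calls without uninduced mouse 1 or 3, Cmpk2 without uninduced mouse 1, 2 or 3 or day 4 mouse 2, 3, 4 or 5 or the low mitochondrial libraries, and Lgals3bp without uninduced mouse 1, 2 or 3 or day 4 mouse 2, 4 or 5 or the low mitochondrial libraries.

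Nucleic acid sensors and other interferon-responsive families gave single calls. Of 18 tested sensor genes 3 rose (median 0.40). The count was 0 with the fixed total, 0 in the fit of 9 mice, 1 without uninduced mouse 3 and 5 without day 4 mouse 1. Dhx58, a helicase that regulates viral RNA sensing, went from 2.79, 2.66 and 2.46 FPKM to between 3.60 and 9.10 (1.04 ± 0.19, adjusted p = 0.0013). Ifi211 went from 1.08, 2.24 and 0.42 FPKM to between 3.95 and 10.7 (1.81 ± 0.35, adjusted p = 0.0021), and Ifi207, of the same DNA-binding family, rose by 1.01 ± 0.25 (SE, adjusted p = 0.021). The groups did not overlap in these 3 genes. Of 16 tested interferon-inducible GTPase genes 1 rose, Gbp3, from 5.12, 3.76 and 4.62 FPKM to between 6.77 and 14.8 (0.94 ± 0.24, adjusted p = 0.026). Gbp2 stood at 5.43, 7.49 and 9.25 FPKM and then at 6.40 to 48.3, with mouse 2 highest, and did not pass (1.04 ± 0.55, adjusted p = 0.40). Of 19 tested Trim and Schlafen genes 2 rose, Trim30c (1.36 ± 0.28, adjusted p = 0.0034) and the myeloid gene Slfn4 (1.75 ± 0.45, adjusted p = 0.030), and the count was 0 with the fixed total, 0 in the fit of 9 mice and 1 without uninduced mouse 1, 2 or 3 or day 4 mouse 2, 5 or 6. Single members of these families are uncertain, since they have close paralogs. Of 18 tested genes of the pathway itself 1 rose, the feedback inhibitor Socs3 (0.95 ± 0.22, adjusted p = 0.010). The pathway count was 0 with the fixed total, 0 in the fit of 9 mice, 0 without uninduced mouse 2 or 3 and 2 without day 4 mouse 1. The receptor gene Ifnar2 (0.43 ± 0.16, adjusted p = 0.17), Stat2 (0.69 ± 0.22, adjusted p = 0.11) and the negative regulator Usp18 (0.84 ± 0.29, adjusted p = 0.12) did not pass, and Ifnar1 stood at a log2 difference of -0.13 ± 0.12 (SE, adjusted p = 0.69), without a call. Ifi211 lost its call without uninduced mouse 3, Ifi207 without uninduced mouse 1 or 3 or day 4 mouse 5, Gbp3 without uninduced mouse 1, 2 or 3 or day 4 mouse 2 or the low mitochondrial libraries, Slfn4 without uninduced mouse 1, 2 or 3 or day 4 mouse 2, 5 or 6, and Socs3 without uninduced mouse 2 or 3.

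Promoters of 4 called interferon-responsive genes are shown because each holds the letters GAAA, any 2 bases and GAAA again, a core of the interferon-stimulated response element, in the 100 bases before its start. They come from the same RefSeq table, with matches on either strand in capitals and overlapping matches as 1 run. Oas1a, an antiviral synthetase gene, is from chr5:120907526-120907625 on the minus strand, Gbp3 from chr3:142559944-142560043 on the plus strand, Ifi211 from chr1:173913047-173913146 on the minus strand and Ifi207 from chr1:173741810-173741909 on the minus strand.
Oas1a: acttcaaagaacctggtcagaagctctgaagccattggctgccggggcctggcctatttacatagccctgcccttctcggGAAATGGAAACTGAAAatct
Gbp3: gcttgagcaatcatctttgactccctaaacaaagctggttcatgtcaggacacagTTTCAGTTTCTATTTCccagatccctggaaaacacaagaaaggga
Ifi211: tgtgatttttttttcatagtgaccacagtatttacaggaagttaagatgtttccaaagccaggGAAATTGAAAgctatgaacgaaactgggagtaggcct
Ifi207: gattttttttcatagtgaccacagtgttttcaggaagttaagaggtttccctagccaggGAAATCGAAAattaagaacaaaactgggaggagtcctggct
Oas1a and Gbp3 held 2 overlapping matches each and the others 1, at 14 to 45 bases before the start. Oas1a, chosen for its promoter after its values were seen, went from 4.37, 5.00 and 1.8 FPKM to between 2.96 and 17.8 (1.24 ± 0.34, adjusted p = 0.043), with overlap. In the 250 bases before the start, 5 of 12 called genes of the 4 interferon-responsive lists with a sequence held the letters (41.7 percent), as did 31 of 63 not called (49.2 percent). The share was 3.46 percent over all genes, and 0 of the 23 called neutrophil and granule genes held them. Oas1a lost its call without uninduced mouse 1 or 3 or day 4 mouse 2, 3, 4, 5 or 6.

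Natural killer cell genes were lower. Of 20 tested receptor and regulator genes 10 fell and 0 rose, and 17 had changes below 0 and 3 above (median -0.85). In 10 every day 4 mouse was below every uninduced mouse, and in 1 above. The count called lower was 6 without uninduced mouse 2. With a pseudocount of 0.1, 11 were called lower and 1 higher. Ncr1 (-0.88 ± 0.30, adjusted p = 0.12) and Klrb1c (-0.86 ± 0.24, adjusted p = 0.051), of the same list, were not called by limma. Both overlapped between the groups and are named after their values were seen. Klrd1, the CD94 chain shared by several receptors, stood at 15.6, 13.5 and 13.9 FPKM before and at 4.03 to 8.95 (median 5.25) on day 4, a change of -1.19 ± 0.24 (SE, adjusted p = 0.0030). Day 4 mice 1, 3 and 4, the libraries of low mitochondrial share, were the lowest of the 6. Without the low mitochondrial libraries the change of Klrd1 was -0.84 (adjusted p = 0.074), while 9 genes of the list were called lower (median -0.86). Klre1, another lectin-like receptor, went from 2.68, 2.49 and 2.02 FPKM to between 0.094 and 0.81 (-1.29 ± 0.19, adjusted p = 5.5e-05) and was called in all 17 alternatives. Klrk1, which encodes the activating receptor NKG2D (-0.83 ± 0.14, adjusted p = 0.00062), Klrc2 (-0.71 ± 0.13, adjusted p = 0.0014) and Klra8, the Ly49H receptor (-1.49 ± 0.35, adjusted p = 0.015), fell too, without overlap. The Klra genes are near copies, so single values are uncertain. Klra8 lost its call without uninduced mouse 2 or the low mitochondrial libraries.

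The lower receptor genes lie together. Of 21 tested genes with Klr symbols on chromosome 6, 13 fell, within chr6:129577905-130306428 by the GRCm38 coordinates of the deposited table, and they made up 26.5 percent of all 49 genes called lower. The 13 include Klra genes and Klra pseudogenes, which are near copies, so they are not 13 separate observations. With the fixed total 12 of the 20 listed genes were called lower, and in the fit of 9 mice 1. None of 13 cytotoxic effector genes, which killer T cells share, was called by limma (median -0.42, 5 at an unadjusted p under 0.05). The chemokine gene Ccl5 stood at 35.7, 18.6 and 20.8 FPKM before and at 3.41 to 18.4 on day 4 (-1.22 ± 0.40, adjusted p = 0.11), and the granule gene Nkg7 at 25.5, 24.2 and 15.3 FPKM and then 5.74 to 18.3 (-0.69 ± 0.26, adjusted p = 0.19). The groups overlapped for Nkg7 and not for Ccl5.

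Genes of other lymphocytes gave few calls. None of 25 T cell genes (median -0.16), 20 B cell genes (median -0.13) and 11 MHC class II genes (median -0.07) was called by limma, and 3, 2 and 3 had an unadjusted p under 0.05. Voom called none of them either. Most leaned lower, with 23, 18 and 10 changes below 0. With the fixed total the medians were -0.46, -0.47 and -0.42, again without a call. Leaving out day 4 mouse 2 gave 1 gene called lower in each list. Leaving out day 4 mouse 6 gave 1 in the B cell and 1 in the class II list. The B cell list also had 1 called lower without uninduced mouse 3, and the class II list 1 with a pseudocount of 0.1. Cd3e, of the T cell receptor complex, stood at 9.17, 7.49 and 5.30 FPKM before and at 2.76 to 8.32 on day 4 (-0.56 ± 0.19, adjusted p = 0.11), and the B cell gene Cd72 at 11.2, 9.43 and 6.43 FPKM and then 3.53 to 7.95 (-0.65 ± 0.19, adjusted p = 0.059). Both overlapped. In the antibody-secreting cell list 1 of 10 rose, the transcription factor gene Xbp1 (0.47 ± 0.12, adjusted p = 0.026). Fcrl5, an Fc receptor-like gene of B cells, went from 0.70, 0.25 and 0.80 FPKM to between 2.18 and 5.60 (1.64 ± 0.20, adjusted p = 3.0e-06). Cd209a, a dendritic cell lectin gene, went from 1.55, 4.24 and 0.79 FPKM to between 0 and 0.39 (-1.21 ± 0.25, adjusted p = 0.0045). Neither overlapped. Smaller decreases were called for Rsrc2 (-0.52 ± 0.09, adjusted p = 0.00059), the adaptor gene Stap1 (-0.46 ± 0.10, adjusted p = 0.0091), AI504432 (-0.49 ± 0.13, adjusted p = 0.043), the ubiquitin ligase gene Rnf138 (-0.41 ± 0.11, adjusted p = 0.047) and Gimap5, a lymphocyte survival gene (-0.40 ± 0.11, adjusted p = 0.041). Xbp1 lost its call without uninduced mouse 1 or 3 or day 4 mouse 5 or the low mitochondrial libraries, Cd209a without uninduced mouse 2, Stap1 without uninduced mouse 1 or 2, AI504432 without uninduced mouse 1, 2 or 3 or day 4 mouse 1, 2 or 5, Rnf138 without uninduced mouse 1, 2 or 3 or day 4 mouse 2, 3, 4, 5 or 6 or the low mitochondrial libraries, and Gimap5 without uninduced mouse 1, 2 or 3 or day 4 mouse 1, 3, 4 or 5 or the low mitochondrial libraries.

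Red cell and platelet genes were not called by limma or voom. In limma 0 of the erythroid and platelet lists and 1 of 7 hemoglobin genes had an unadjusted p under 0.05. All 31 tested erythroid genes had changes above 0 (median 0.58), and without the low mitochondrial libraries the median was 0.12. Epb41 stood at 218, 355 and 670.5 FPKM before and at 333 to 1304 on day 4 (0.89 ± 0.54, adjusted p = 0.48). The median of 15 platelet genes was 0.26, and -0.08 with the fixed total. No member was called in the lists for class I antigen presentation, ribosomal proteins, mitochondrial genes, heat shock, cell division, polyamines, cholesterol, glucocorticoid response and immediate early genes, whose medians lay between -0.05 and 0.34. Nfil3, a clock-linked immune transcription factor, rose (0.70 ± 0.19, adjusted p = 0.040), 1 of 11 circadian genes. Nfil3 lost its call without uninduced mouse 1 or 3 or day 4 mouse 2, 5 or 6 or the low mitochondrial libraries.

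The same day 4 change was measured in mice labelled Ifnar1-/- against their own uninduced mice, and the difference between the changes was tested. It was called for 30 genes (0.254 percent), of which 28 (0.237 percent) had the lower and 2 (0.0169 percent) the higher change in Ifnar1+/+ mice. Steap4 changed by 1.88 in Ifnar1+/+ and 3.72 in labelled Ifnar1-/- mice, a difference of -1.84 ± 0.40 (SE, adjusted p = 0.034). Cxcr2 changed by 1.12 and 2.45 (-1.32 ± 0.29, adjusted p = 0.037), Hk3 by 0.80 and 2.15 (-1.36 ± 0.27, adjusted p = 0.030) and Pgd by 0.71 and 1.70 (-0.98 ± 0.20, adjusted p = 0.030). Fcrl5 differed the other way, with 1.64 in Ifnar1+/+ and 0.31 in labelled Ifnar1-/- mice (1.33 ± 0.28, adjusted p = 0.034). Over the 33 neutrophil genes the medians were 1.12 and 2.23, with 20 and 33 called higher, against 6.64 percent of all genes called higher in labelled Ifnar1-/- mice. The mean share of hemoglobin fragments was 56.2 percent in uninduced and 38.1 percent in day 4 mice labelled Ifnar1-/-. In Ifnar1+/+ mice it was 51.7 and 51.1 percent. The part of this shift in the differences between the genotypes was not tested. The difference was called for 3 of the 33, and not for Ly6g (-2.15 ± 0.66, adjusted p = 0.17) or Lcn2 (-1.62 ± 0.44, adjusted p = 0.10). Of the 17 libraries of the 4 groups, leaving out 1 in turn ended the call of Cxcr2 in 12 cases, of Steap4 in 11, of Fcrl5 in 10, of Pgd in 9 and of Hk3 in 8, with adjusted p-values of up to 0.13 and the direction kept. The low mitochondrial libraries were all from Ifnar1+/+ mice. Without them Cxcr2 (adjusted p = 0.18), Steap4 (0.22), Pgd (0.13) and Hk3 (0.057) were not called, and Fcrl5 was (0.0499).

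The interferon-stimulated list had a median change of 0.68 in Ifnar1+/+ and -0.00044 in labelled Ifnar1-/- mice, with 7 and 1 of 45 called higher. By limma 0 of the 45 differences were called and 16 had an unadjusted p under 0.05, against 1142 of all 11829 genes. Isg15 stood at 16.4 ± 2.12 FPKM (SD, n = 3) in uninduced and 12.1 ± 10.9 FPKM (SD, n = 5) in day 4 mice labelled Ifnar1-/- (difference of changes 1.59 ± 0.73, adjusted p = 0.46). Neither Gbp3 (1.37 ± 0.34, adjusted p = 0.069) nor Ifi211 (1.85 ± 0.50, adjusted p = 0.099) passed. Slfn4 had changes of 1.75 and 3.52. In the natural killer list 10 and 7 of 20 genes fell (medians -0.85 and -0.40), against 1.49 percent of all genes called lower in labelled Ifnar1-/- mice. The number of called differences depended on the fit. Voom on recovered reads called 0 (1031 at an unadjusted p under 0.05). Against the 30 with all libraries there were 1 without labelled Ifnar1-/- day 4 mouse 3, 4 or 5, 2 without Ifnar1+/+ uninduced mouse 1 or labelled Ifnar1-/- uninduced mouse 1 or 3, 5 without Ifnar1+/+ uninduced mouse 3, 7 without Ifnar1+/+ day 4 mouse 1 or 4, 10 without labelled Ifnar1-/- uninduced mouse 2, 16 without Ifnar1+/+ day 4 mouse 3, 17 without Ifnar1+/+ day 4 mouse 2, 19 without Ifnar1+/+ uninduced mouse 2 and 128 without Ifnar1+/+ day 4 mouse 5.

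**Figure D4:**
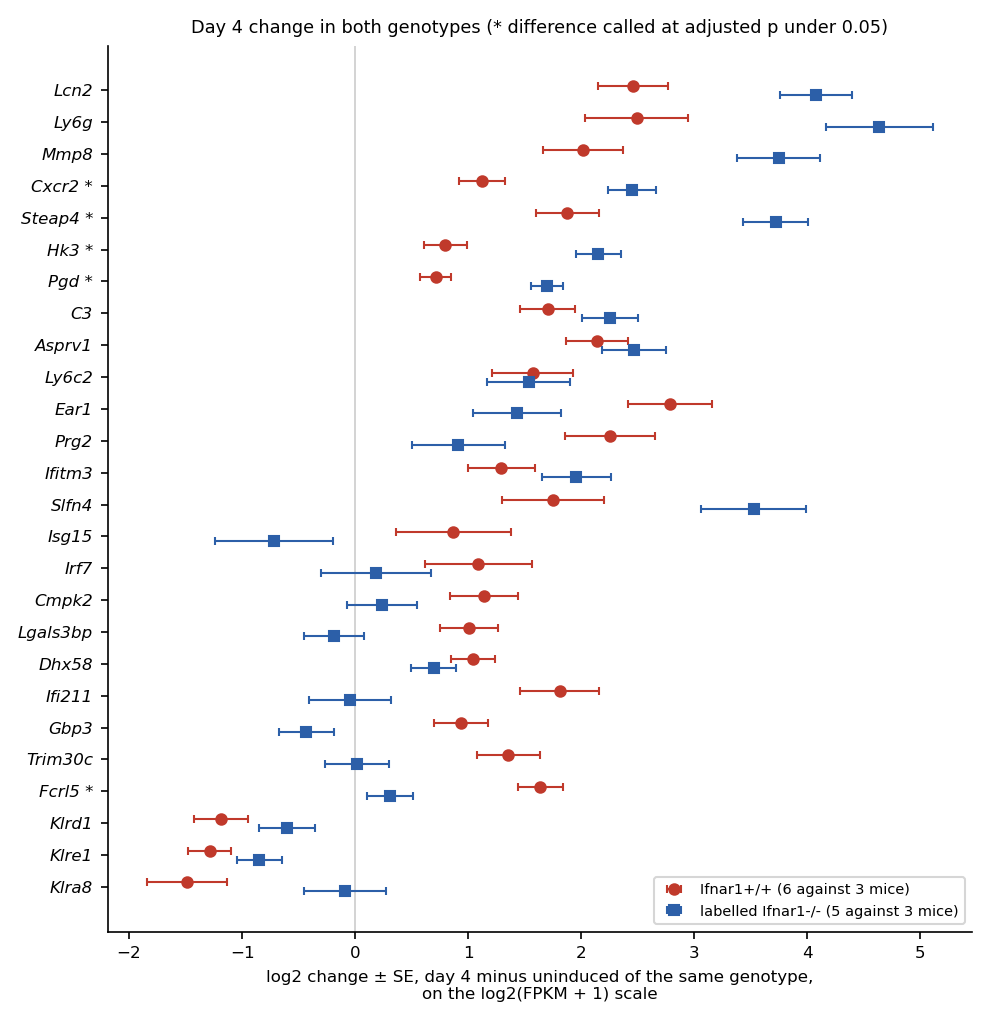
Log2 change ± SE from uninduced to day 4 (x axis, log2(FPKM + 1) scale) of 26 genes in Ifnar1+/+ mice (6 against 3) and in mice labelled Ifnar1-/- (5 against 3). An asterisk marks genes whose difference was called. Cxcr2 lies farther right in labelled Ifnar1-/- mice (2.45 against 1.12) and Fcrl5 in Ifnar1+/+ mice (1.64 against 0.31).

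Day 6 was compared with day 4 directly, in 6 mice each. Of all genes 36 were higher on day 6 (0.304 percent) and 20 lower (0.169 percent). Ear1 and Prg2 were lower on day 6. Ear1 stood at 6.41 ± 3.14 FPKM (SD, n = 6) on day 4 and 0.95 ± 0.74 FPKM on day 6 (-1.90 ± 0.31, adjusted p = 0.0029), and Prg2 at 4.99 ± 3.07 FPKM and 0.58 ± 0.39 FPKM (-1.81 ± 0.32, adjusted p = 0.0037). Fcrl5 was lower as well (-0.83 ± 0.16, adjusted p = 0.0077). In the neutrophil list 7 of 33 genes were higher on day 6 (median 0.79), among them Lcn2 (1.11 ± 0.25, adjusted p = 0.033) and Cxcr2 (0.79 ± 0.17, adjusted p = 0.020). The chemokine receptor gene Ccr1, not called on day 4, was higher too (0.89 ± 0.15, adjusted p = 0.0029). The interferon-stimulated list had a median difference of 0.01 and the natural killer list of 0.34. With the fixed total 0 genes were called by limma between the days (971 at an unadjusted p under 0.05), and in a fit of those 12 mice 0 (1729). Against the 56 genes called in all there were 23 without Ifnar1+/+ day 4 mouse 1, 24 without Ifnar1+/+ day 4 mouse 2, 25 without Ifnar1+/+ day 4 mouse 4, 26 without Ifnar1+/+ day 6 mouse 5, 31 without Ifnar1+/+ day 6 mouse 2, 34 without Ifnar1+/+ day 6 mouse 1, 36 without Ifnar1+/+ day 4 mouse 3, 116 without Ifnar1+/+ day 6 mouse 6 and 339 without Ifnar1+/+ day 4 mouse 5. When 1 of the 12 libraries was left out in turn, the calls of Ear1, Prg2, Fcrl5 and Ccr1 held each time, while that of Lcn2 was lost in 8 cases and that of Cxcr2 in 5. Without the low mitochondrial libraries Fcrl5 (adjusted p = 0.11), Lcn2 (0.10) and Cxcr2 (0.11) were not called.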

How the data were processed

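Whole blood mRNA of 40 mice was sequenced after poly-T selection, per the labels' protocols. The submitters' processing notes list HISAT2 2.0.5 and featureCounts 1.5.0-p3 beside fastp, CASAVA 1.8 and DESeq2 1.20.0, and the builds GRCm38 and mm10. The deposited values are FPKM per gene for 54532 genes, and their steps show a library scale set by median-of-ratios size factors. Of the non-zero values 100 percent were whole reads within a tolerance of 0.001, and these recovered reads gave the depth and the voom alternative. Changes were fitted with limma 3.58.1 (R 4.3.3, trend option) on log2(FPKM + 1) in 8 groups of 40 libraries, for the 11829 genes that reached 1 FPKM in 3 libraries or more, with Benjamini-Hochberg adjustment over all of them and 0.05 as threshold. Alternatives were voom on recovered reads, fixed library totals, a smaller pseudocount (0.1), every detected gene, fits restricted to the compared groups, a replicate block and leaving out libraries. The scripts were tested on simulated data. Named were, of called genes at a group mean of 5 FPKM or more, the 12 highest and 12 lowest changes without predicted genes, up to 4 members of smallest p in each of 39 lists, the 6 called genes of smallest p in the genotype difference, and Ifnar1, Isg15, Irf7, Ly6g, S100a8, S100a9, Ear1 and Ear2. The lists and members were chosen with earlier results of these data known. Promoter sequences are from RefSeq, build GRCm38.p6, matched by symbol. Counting error and PCR copies were not separated. Figures used Python 3.11.15 and matplotlib 3.10.9.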

Additional observations from a re-analysis of the deposited data

Results flagged for a closer look

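Among the 6 day 4 mice, 1 mouse stood far from the others in 7 of the 102 genes looked at. The gap to the nearest mouse as a share of the whole range was above Dixon's critical value for Hdc (0.660, mouse 5 at 13.3 FPKM), Cd300e (0.728, mouse 1 at 1.39 FPKM), Trim30c (0.755, mouse 1 at 0.84 FPKM), Klrk1 (0.639, mouse 4 at 1.90 FPKM), Klrc2 (0.703, mouse 4 at 0.82 FPKM), Stap1 (0.708, mouse 3 at 3.24 FPKM) and Ccr1 (0.633, mouse 5 at 17.5 FPKM). Chance flags about 1 in 20 such groups.

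The day 4 change differed between Ifnar1+/+ mice and mice labelled Ifnar1-/- by limma in 8 of these genes, against 0.254 percent of all tested genes. The genes looked at were picked in part by this same test, so the count of 8 is no result about them. The log2 change was lower in Ifnar1+/+ mice for Cxcr2 (-1.32 ± 0.29, adjusted p = 0.037), Steap4 (-1.84 ± 0.40, adjusted p = 0.034), Hk3 (-1.36 ± 0.27, adjusted p = 0.030), Pgd (-0.98 ± 0.20, adjusted p = 0.030) and Ccr1 (-1.42 ± 0.27, adjusted p = 0.030), and higher for Fcrl5 (1.33 ± 0.28, adjusted p = 0.034). For Mir6907 (-1.60 ± 0.24, adjusted p = 0.0013) and Gm13343 (-2.10 ± 0.45, adjusted p = 0.034) the change in Ifnar1+/+ mice was from 4 and 7 reads over the 3 uninduced mice to 0 reads on day 4. When 1 of the 17 libraries was left out in turn, the call of Ccr1 was lost in 6 cases, that of Gm13343 in 10 and that of Mir6907 in 0. Without the low mitochondrial libraries the adjusted p was 0.057 for Ccr1, 0.22 for Gm13343 and 0.041 for Mir6907.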

How the results depend on the processing

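For day 4 against uninduced, 248 genes were called by limma, against 43 with a library total fixed after removing hemoglobin, 16 with a library total fixed with hemoglobin, 17 in a fit restricted to the compared groups, 223 with the replicate block, and 114 to 290 when leaving out 1 library at a time. For the genotype difference, 30 genes were called by limma, against 561 with a library total fixed with hemoglobin, 15 with a pseudocount of 0.1, 14 in a fit restricted to the compared groups, 0 by voom on recovered reads (1031 at an unadjusted p under 0.05), 9 without libraries of low mitochondrial share, 1 with the replicate block, and 1 to 128 when leaving out 1 library at a time. For day 6 against day 4, 56 genes were called by limma, against 0 with a library total fixed after removing hemoglobin (971 at an unadjusted p under 0.05), 0 with a library total fixed with hemoglobin (631 at an unadjusted p under 0.05), 0 in a fit restricted to the compared groups (1729 at an unadjusted p under 0.05), 31 by voom on recovered reads, 6 without libraries of low mitochondrial share, 62 with the replicate block, and 23 to 339 when leaving out 1 library at a time. Same-numbered mice did not pair: their deviations correlated at -0.27, -0.01 and 0.29. Of the 74 called genes named, 4 were called under every alternative listed and 0 reversed. The calls kept were 22 with the total fixed after removing hemoglobin, 12 with one including it, and 9 in the restricted fit. Among uncalled genes, the log2 change turned below 0 for Rpia (-0.19 and -0.18 with the total fixed without and with hemoglobin, -0.015 without the low mitochondrial libraries, -0.028 to 0.17 leaving out 1 library), Rpe (-0.17 and -0.16 with those totals) and Pgls (-0.0004 with the total fixed without hemoglobin). The cause of these differences was not tested. Genes with few reads are limited by depth, and 1 read of a 2 kb gene was worth 0.037 to 0.10 FPKM.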

Other observations

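The genes here were chosen after their values were seen. Besides Pgd, 2 further pentose phosphate genes rose on day 4, G6pdx, which encodes the enzyme of the pathway's first step, from 7.86, 9.09 and 9.06 FPKM to between 13.2 and 25.5 (0.88 ± 0.16, adjusted p = 0.00086), and Tkt, the transketolase gene (0.84 ± 0.15, adjusted p = 0.00076). The other pentose phosphate genes looked at, Taldo1 (0.38 ± 0.30, adjusted p = 0.63), Pgls (0.29 ± 0.24, adjusted p = 0.64), Rpia (0.04 ± 0.18, adjusted p = 0.95) and Rpe (0.08 ± 0.15, adjusted p = 0.86), did not pass. Csf2rb, the beta chain shared by the receptors for GM-CSF, interleukin-3 and interleukin-5, rose (1.35 ± 0.18, adjusted p = 1.0e-05), as did Acod1, which makes itaconate in activated myeloid cells (1.64 ± 0.27, adjusted p = 0.00040). For G6pdx, Tkt, Csf2rb and Acod1 every day 4 mouse was above every uninduced mouse. The pseudogenes Klra14-ps (-2.31 ± 0.33, adjusted p = 3.5e-05) and Klra13-ps (-1.68 ± 0.24, adjusted p = 2.7e-05) of the natural killer cluster were lower, and their values are uncertain because the Klra genes are near copies.

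Keratin genes of stratified epithelium had reads in these blood libraries. Krt13 stood at 1.02, 0.078 and 0.069 FPKM in uninduced mice and at 1.59 to 7.95 on day 4 (2.07 ± 0.56, adjusted p = 0.039), and Krt6b (1.96 ± 0.51, adjusted p = 0.030) and the epithelial transglutaminase gene Tgm1 (1.01 ± 0.18, adjusted p = 0.00071) rose too. The mean of Tgm1 was 1.17 FPKM on day 4 and 2.04 on day 6, against 5.00 and 2.84 for Krt13 and 3.66 and 2.43 for Krt6b. None of these differences between the days was called by limma. In mice labelled Ifnar1-/- the means went from 0.31 to 4.56 FPKM for Tgm1, 1.44 to 3.35 for Krt13 and 0.56 to 1.78 for Krt6b. Krt6a (0.90 ± 0.27, adjusted p = 0.069), Krt19 (0.91 ± 0.29, adjusted p = 0.093), Krt5 (0.91 ± 0.35, adjusted p = 0.20), Krt4 (0.58 ± 0.26, adjusted p = 0.28) and Krt14 (0.56 ± 0.42, adjusted p = 0.61) did not pass the test, and Krt1 was at 0 FPKM in all 3 uninduced and all 6 day 4 mice. Krt10 and Dsg3, also looked at, were too low to test. The blood was drawn from the orbital venous plexus, per the series' design, and the part of other tissue in these values was not tested. The calls of Krt13 and Krt6b were lost without uninduced mouse 1, 2 or 3 and without the low mitochondrial libraries, among others.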
